A study of Mus musculus with 6 samples.

Results

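Mitochondria in heart muscle are joined, divided and cleared by a small set of proteins, and the transcripts of 10 genes for these steps were measured in the pressure-loaded mouse heart with and without miR-204. The genes were chosen by symbol for what they do: Mfn1, Mfn2 and Opa1 for fusion, Dnm1l, Fis1 and Mff for fission, and Pink1, Bnip3, Bnip3l and Fundc1 for mitophagy, the removal of damaged mitochondria by autophagy. All 10 were found among the 24404 genes of the raw count table. The comparison was between 3 heart libraries of wild-type mice (WT-TAC) and 3 of miR-204-/- mice (KO-TAC). Mice of both genotypes had undergone transaortic constriction, which narrows the aorta and raises the load on the left ventricle, and hearts were taken 5 weeks later. No unoperated heart was analysed here, so each value compares genotypes after surgery. The labels give neither the age of the mice nor the animals behind each library, and p-values measure only the spread between these libraries.

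Library totals ran from 6411538 to 8571737 counts, and the 10 genes had between 124 and 9132 counts each in a library. Cardiomyocyte markers (Myh6, Tnnt2, Tnni3, Actc1, Myl2, Ryr2, Pln and Tnnc1) were found in every library and summed to between 65853 and 94706 CPM, counts scaled to library size. Mir204 was listed at 0 counts in all 6 libraries and its host gene Trpm3 at 39 to 78, so the deletion could not be checked in this table. In the table, the animal or sample number heading KO-TAC replicate 3 differs from the one in its label and equals that of WT-TAC replicate 3. Its library index was used to assign it, and values without it are given. That library also had the lowest sum of atrial markers (415 CPM, against 2996 to 8746 in the others). Nppa, a natriuretic peptide gene, made up most of that sum, with 311 CPM there and 7904 CPM in WT-TAC replicate 1. Of the other listed markers, Myl7, Myl4 and Sln were also lowest in that library, whereas Bmp10 was not. The part of atrial tissue in this sum was not tested. The sum of smooth muscle markers was 183, 176 and 66.8 CPM in KO-TAC and 229, 270.3 and 205 CPM in WT-TAC. It was lower in every KO-TAC library than in every WT-TAC library, with KO-TAC replicate 3 lowest. As single genes, Lmod1, Myh11 and Tagln did not overlap between the genotypes, whereas Acta2 and Cnn1 did. Among all tested genes, 7.98% did not overlap.

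Mitochondrial fusion joins the outer membranes through the mitofusin GTPases and the inner membranes through OPA1. Fission is carried out by DRP1, the dynamin-related GTPase encoded by Dnm1l, which is drawn from the cytosol to receptors on the outer membrane. In mitophagy PINK1 accumulates on damaged mitochondria and activates the ubiquitin ligase parkin, whereas BNIP3, NIX (encoded by Bnip3l) and FUNDC1 bind LC3-family proteins directly. Adult cardiomyocytes are packed with mitochondria, and loss of both mitofusins or of DRP1 in them causes heart failure in mice.

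The microRNA missing in KO-TAC recognises transcripts by its seed, bases 2 to 8, shown in capitals in the first line. Its 7-base match in a 3′ UTR is AAAGGGA, and the shortest match searched is the 6-base AAGGGA. Only the transcript strand of the longest annotated 3′ UTR of each gene was searched. The other lines show every match found among the 10 genes, with the matching bases in capitals.
miR-204-5p: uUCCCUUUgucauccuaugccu
Opa1, first match: attattctaacAAGGGAAaaatgttgacc
Opa1, second match: tttggagaactAAGGGAtttttaaatac
Mfn2: attgtgacgacAAGGGActtgcctccct

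The mature sequence is RefSeq's (GRCm38.p6), and the sites are from GENCODE M21 transcripts on GRCm38. None of the 10 genes held the 7-base match AAAGGGA, which occurs in 18.1% of the 11692 tested genes with a 3′ UTR. The 6-base match was found in Opa1 and Mfn2, against 40.9% of those genes. The first Opa1 sequence spans chr16:29652636-29652664 on the plus strand, and its match starts at base 904 of a 3′ UTR of 3141 bases and is followed by the adenine that makes it a 7mer-A1 site. The second spans chr16:29653789-29653816, with the match at base 2057 of that UTR. The Mfn2 sequence spans chr4:147874720-147874747 on the minus strand, with the match at base 653 of a 3′ UTR of 1790 bases.

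Of these 10 transcripts, 0 passed edgeR's quasi-likelihood test between KO-TAC and WT-TAC, with adjusted p of 0.999 for each. Over all 12487 tested genes the same test called 3, or 0.024%. At an unadjusted p under 0.05 there were also 0 of the 10, against 2.93% of all tested genes (366 genes). DESeq2 and limma-voom also called 0 of the 10. All 10 passed the filter on low counts, and the CPM of the 2 genotypes overlapped for each of them, whereas they did not overlap for 7.98% of all tested genes. Log2 fold changes of KO-TAC over WT-TAC were above 0 for 5 genes and below 0 for 5. They ran from −0.26 for Pink1 to 0.15 for Bnip3, with a median of 0.0061, beside 0.0012 over all tested genes. For each of the 10 the difference between genotype means on the log2 CPM scale was smaller than the standard deviation (SD) among libraries of a genotype.

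**Figure D1:**
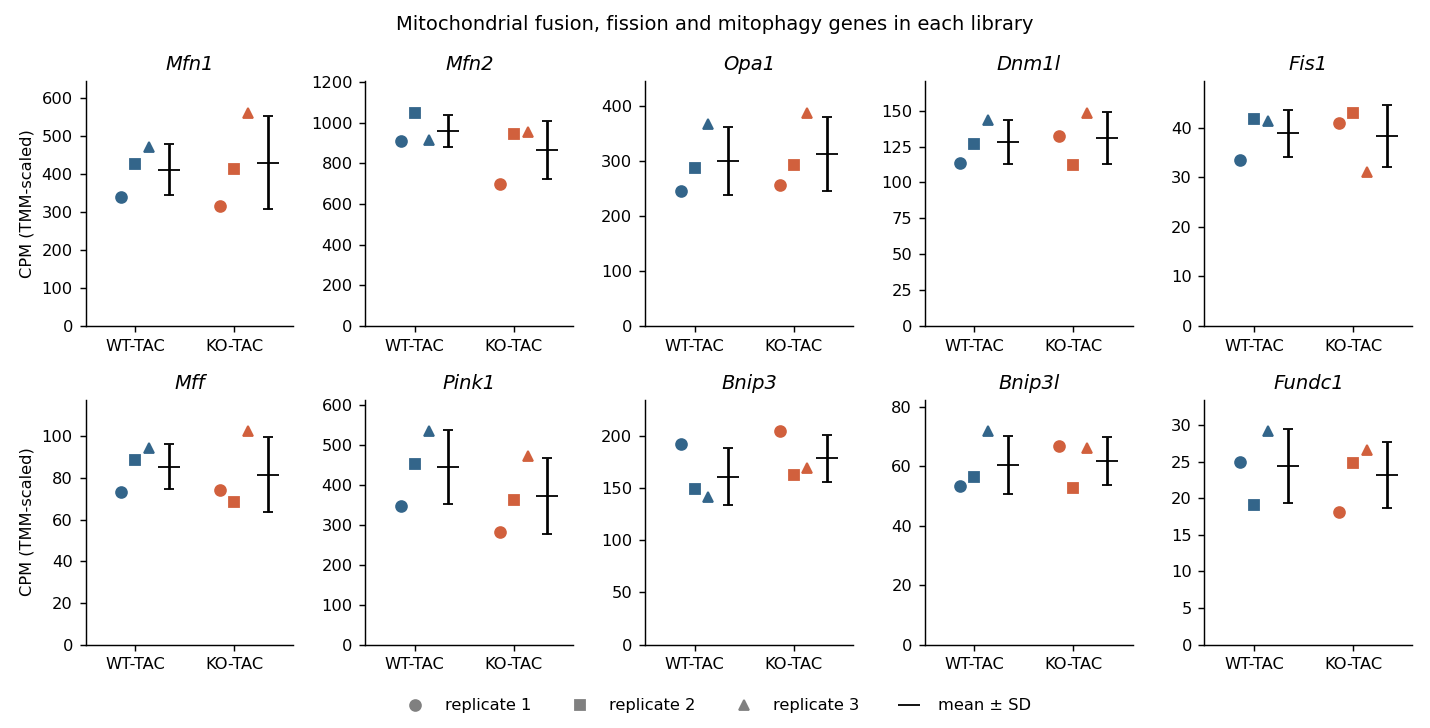
CPM on TMM-scaled library sizes (vertical axes, each from 0) for the 10 genes in 3 WT-TAC (blue) and 3 KO-TAC (orange) libraries; marker shape is the replicate number and black bars are mean ± SD. In every panel the points of the 2 genotypes overlap.

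These data bound the size of a difference more than they show its absence. The 95% intervals of the fold change reached down to between 0.592 (Pink1) and 0.833 (Bnip3) and up to between 1.18 (Pink1) and 1.48 (Mfn1). A 2-fold difference in either direction therefore lay outside the interval of each gene. Standard errors of the log2 fold change ran from 0.18 to 0.26, with a median of 0.21 beside 0.29 over all tested genes. The biological coefficient of variation of the 10 genes was 0.182 to 0.229, and the common value over all genes was 0.286.

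**Figure D2:**
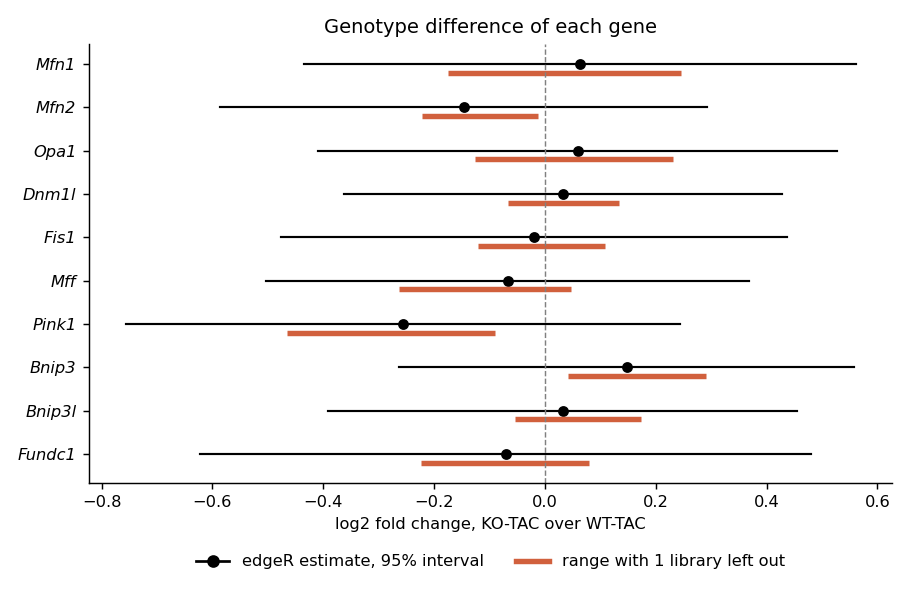
Log2 fold change of KO-TAC over WT-TAC (horizontal axis) for each gene, with the edgeR estimate and its 95% interval in black and the range of estimates with 1 library left out in orange. Each interval includes 0, and the orange ranges of Mfn2, Pink1 and Bnip3 stay on 1 side of 0.

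Mfn2, at chr4:147873599-147904704 on GRCm38, encodes mitofusin 2 of the fusion machinery, which also tethers mitochondria to the endoplasmic reticulum. It stood at 910, 1048 and 917 CPM in WT-TAC replicates 1 to 3 and at 699, 944 and 955 CPM in KO-TAC replicates 1 to 3. KO-TAC replicate 1 was the lowest library, and the other 2 KO-TAC values lay within the wild-type range. The log2 fold change was −0.15 ± 0.20 (SE, standard error), with −0.012 when KO-TAC replicate 1 was left out and −0.22 when KO-TAC replicate 3 was.

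Mfn1, at chr3:32529465-32579239, encodes mitofusin 1, the mitofusin with the higher GTPase and tethering activity. It stood at 339, 425 and 471 CPM in WT-TAC and at 316, 414 and 560.6 CPM in KO-TAC. The KO-TAC libraries held both the lowest and the highest value, and they differed among themselves by 1.78-fold. Its log2 fold change was 0.06 ± 0.23 (SE), but −0.17 without KO-TAC replicate 3 and −0.061 without WT-TAC replicate 1. Opa1, at chr16:29579334-29654884, encodes the inner membrane GTPase that also keeps cristae narrow. It stood at 245, 287 and 366 CPM in WT-TAC and at 257, 293 and 387 CPM in KO-TAC, so that the genotypes ran almost level. Its log2 fold change was 0.06 ± 0.22 (SE), −0.13 without KO-TAC replicate 3, −0.069 without WT-TAC replicate 1 and 0.23 without WT-TAC replicate 3.

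Dnm1l, at chr16:16312230-16358959, encodes the fission GTPase DRP1. It stood at 114, 127 and 144 CPM in WT-TAC and at 132, 112 and 148 CPM in KO-TAC. Its standard error was the smallest of the 10, and the log2 fold change of 0.03 ± 0.18 (SE) had an interval of 0.777-fold to 1.34-fold. It turned to −0.067 without KO-TAC replicate 3 and to −0.050 without WT-TAC replicate 1. Mff, at chr1:82724890-82752394, encodes the main outer membrane receptor for DRP1. It stood at 73.5, 88.7 and 94.5 CPM in WT-TAC and at 74.2, 68.5 and 102 CPM in KO-TAC. KO-TAC held both extremes again, and the log2 fold change was −0.07 ± 0.20 (SE). It was −0.26 without KO-TAC replicate 3 and above 0 without KO-TAC replicate 2 (0.047) or WT-TAC replicate 3 (0.011).

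Fis1, at chr5:136953275-136966234, encodes a tail-anchored outer membrane adaptor of fission. It stood at 33.5, 41.8 and 41.4 CPM in WT-TAC and at 40.9, 43.0 and 31.2 CPM in KO-TAC. Unlike Mfn1, Opa1, Dnm1l and Mff, it had its lowest value in KO-TAC replicate 3. The log2 fold change of −0.02 ± 0.21 (SE) was the smallest in size among the 10, and it was above 0 without KO-TAC replicate 3 (0.11), WT-TAC replicate 2 (0.035) or WT-TAC replicate 3 (0.027).

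Pink1, at chr4:138313409-138326307, had the difference of largest size. The kinase it encodes marks damaged mitochondria for parkin. It stood at 348, 453 and 534 CPM in WT-TAC and at 282, 363 and 473 CPM in KO-TAC. The lowest library was in KO-TAC and the highest in WT-TAC, but KO-TAC replicates 2 and 3 were both above WT-TAC replicate 1. The means were 445 ± 93.4 and 373 ± 96.0 CPM (SD, n = 3), and the log2 fold change was −0.26 ± 0.23 (SE), a fold of 0.837 with an interval of 0.592 to 1.18. It was −0.47 with KO-TAC replicate 3 left out, −0.41 with WT-TAC replicate 1 left out and −0.089 with KO-TAC replicate 1 left out, and it was below 0 under each of the 15 alternatives. The lowest adjusted p of Pink1 among them was 0.872, in limma-voom with quality weights.

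The mitophagy receptors did not share a direction. Bnip3, at chr7:138890836-138909519, encodes a BH3-like outer membrane receptor that hypoxia induces. It stood at 193, 149 and 142 CPM in WT-TAC and at 204, 162 and 169 CPM in KO-TAC. The highest library was in KO-TAC and the 2 lowest in WT-TAC, with WT-TAC replicate 1 above 2 of the KO-TAC libraries. The log2 fold change was 0.15 ± 0.19 (SE), with 0.041 without KO-TAC replicate 1 and 0.29 without WT-TAC replicate 1. Bnip3l, at chr14:66985239-67008877, encodes NIX, which clears mitochondria from maturing red cells and is also made in heart muscle. It stood at 53.5, 56.4 and 71.8 CPM in WT-TAC and at 66.8, 52.6 and 66.3 CPM in KO-TAC, a log2 fold change of 0.03 ± 0.20 (SE). That estimate was below 0 without WT-TAC replicate 1 (−0.054), WT-TAC replicate 2 (−0.018), KO-TAC replicate 1 (−0.024) or KO-TAC replicate 3 (−0.022), and 0.17 without WT-TAC replicate 3. Beside it, the erythroid marker Alas2 had 153 to 523 counts per library, and the globin genes Hbb-bs, Hbb-bt, Hba-a1 and Hba-a2 were listed at 0 in every library. The part of red cells in the Bnip3l values was not tested.

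Fundc1, at chrX:17556564-17572325, encodes a mitophagy receptor that is regulated by phosphorylation during hypoxia. It stood at 25.0, 19.1 and 29.2 CPM in WT-TAC and at 18.1, 24.9 and 26.6 CPM in KO-TAC, from 124 to 213 counts per library. Its standard error was the largest of the 10, and the log2 fold change was −0.07 ± 0.26 (SE). Leaving out WT-TAC replicate 2 gave −0.22, and leaving out WT-TAC replicate 3 or KO-TAC replicate 1 gave 0.080 each. None of the 10 genes lies on chromosome 19, which carries Mir204, or on chromosome 17, which carries 2 of the 3 called genes, Cacna1h and H2-Ea-ps. The remaining called gene, BC002163, lies on chromosome 16, as do Opa1 and Dnm1l.

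Levels between genes were compared per kilobase of the longest coding transcript in GENCODE M21 (RPKM). In WT-TAC Mfn2 (221 ± 17.9) and Pink1 (187 ± 39.3) stood highest (SD, n = 3), and their wild-type values overlapped. Bnip3 (91.8 ± 15.7) and Mfn1 (90.2 ± 14.6) followed at nearly 1 level, then Opa1 (48.1 ± 9.87), Fis1 (41.0 ± 4.92), Mff (41.0 ± 5.21) and Dnm1l (32.3 ± 3.80). Neighbours in the run from Opa1 to Dnm1l overlapped over the WT-TAC libraries, as did Bnip3 and Mfn1. Bnip3l (18.6 ± 3.02) and Fundc1 (12.3 ± 2.57) were the lowest. The order of the means in KO-TAC was the same, from Mfn2 at 199 ± 33.3 and Pink1 at 157 ± 40.4 to Bnip3l at 19.0 ± 2.47 and Fundc1 at 11.7 ± 2.26. With all annotated exons as the length, Mff moved from the middle of the order to the lowest place, at 8.77 RPKM in WT-TAC, since its exons span 9757 bases in all and its longest coding transcript 2087. With that length Fis1 also fell below Dnm1l, at 22.7 and 24.6 RPKM in WT-TAC. The place of Mff in the order, and that of Fis1 against Dnm1l, therefore depend on the length used.

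Differences between libraries of a genotype were larger than those between genotypes, and several genes shared them. Mfn1, Opa1, Dnm1l and Mff each had the highest CPM in KO-TAC replicate 3, and within WT-TAC each was highest in replicate 3 and lowest in replicate 1. Pink1 followed the same order within both genotypes, with 348 to 534 CPM in WT-TAC and 282 to 473 in KO-TAC. Mfn1, Mfn2, Pink1 and Fundc1 were each lowest in KO-TAC replicate 1. Bnip3 ran the other way, with its 2 highest values in KO-TAC replicate 1 (204 CPM) and WT-TAC replicate 1 (193 CPM).

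Some marker sums moved with these differences, but the genes within a list did not all run together. The cardiomyocyte sum was lowest in KO-TAC replicate 1 (65853 CPM) and WT-TAC replicate 1 (71444 CPM) and highest in KO-TAC replicate 3 (94706 CPM). Myh6 alone had 58402 CPM of the sum in that library, whereas Tnnt2 was higher in WT-TAC replicate 1 (9619 CPM) than in KO-TAC replicate 3 (8712 CPM). The fibroblast sum was 2289 and 2325 CPM in KO-TAC and WT-TAC replicates 1 and 973 CPM in KO-TAC replicate 3. Col1a1 and Col3a1 had 917 and 948 CPM of it in WT-TAC replicate 1, where Dcn, another matrix gene of fibroblasts, was at its lowest over the 6 libraries (302 CPM). The macrophage sum was highest in KO-TAC replicate 1 (225 CPM) and lowest in KO-TAC replicate 3 (131 CPM), and endothelial markers were 665 to 840 CPM in WT-TAC and 780 to 1024 CPM in KO-TAC. Of the 5 endothelial markers, 4 had a log2 fold change above 0 and 1 below (median 0.26), and 0 were called in edgeR. Kdr alone did not overlap between the genotypes, at 182, 233 and 153 CPM in WT-TAC and 299, 286 and 256 CPM in KO-TAC. Among all tested genes, 7.98% did not overlap. Kdr also had an unadjusted p under 0.05 in edgeR, beside 2.93% of all tested genes. All 5 smooth muscle markers had a log2 fold change below 0 (median −0.81), and 0 were called in edgeR. Of these, 2 had an unadjusted p under 0.05 in edgeR, beside 2.93% of all tested genes. A list of 12 genes for mitochondrial content (Vdac1, Vdac2, Vdac3, Tomm20, Tomm40, Timm23, Cs, Hspd1, Hspa9, Tfam, Slc25a4 and Atp5a1) summed to 8437 and 8757 CPM in WT-TAC and KO-TAC replicates 1 and to 11807 CPM in KO-TAC replicate 3. In bulk tissue, fewer cells of a type and less RNA per cell cannot be told apart, and the part of cell makeup in these values was not tested.

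**Figure D3:**
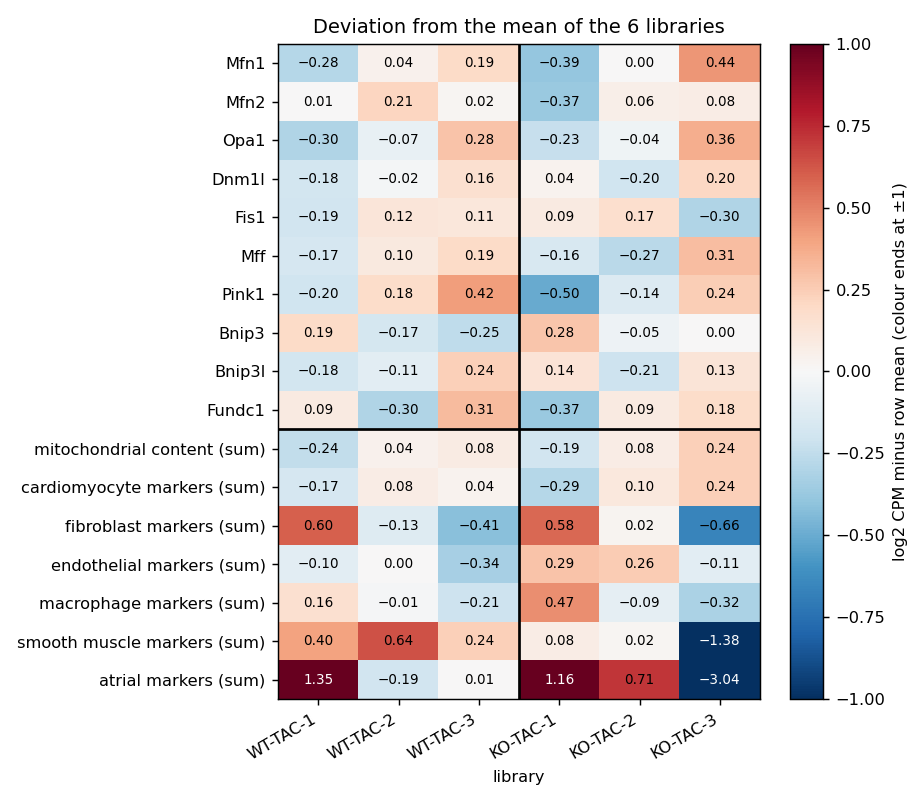
Deviation of each library (columns) from the mean of the 6 libraries in log2 CPM, for the 10 genes (upper rows) and for summed marker lists (lower rows); red is above and blue below the mean, and the colour scale ends at ±1. Replicate 1 of each genotype is below the mean for Mfn1, Opa1, Mff, Pink1 and the cardiomyocyte sum and above it for Bnip3 and the fibroblast sum.

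Ratios between the genes within a library do not depend on how libraries are scaled. Of the 45 pairs among the 10 genes, 2 had ratios that did not overlap between genotypes, or 4.44%, a smaller share than the 8.45% among all pairs of tested genes with a count in every library. Both involve Pink1 and were named after their values were seen. Reads of Mfn1 per read of Pink1 were 0.974, 0.938 and 0.881 in WT-TAC and 1.12, 1.14 and 1.18 in KO-TAC. Reads of Opa1 per read of Pink1 were 0.704, 0.633 and 0.685 in WT-TAC and 0.909, 0.806 and 0.817 in KO-TAC. Relative to Mfn1 and Opa1, Pink1 was thus lower in each KO-TAC library than in any WT-TAC library. The share of such pairs was below the background. For Mfn2, the other fusion gene, the ratios overlapped. Its reads per read of Pink1 were 2.61, 2.31 and 1.72 in WT-TAC and 2.48, 2.60 and 2.02 in KO-TAC.

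The paralogous pairs overlapped between genotypes. Reads of Mfn1 per read of Mfn2 were 0.373, 0.406 and 0.513 in WT-TAC and 0.452, 0.438 and 0.587 in KO-TAC, with replicate 3 highest in both. Reads of Bnip3 per read of Bnip3l were 3.60, 2.65 and 1.97 in WT-TAC and 3.06, 3.08 and 2.55 in KO-TAC. The ratio thus spread more within WT-TAC than between the genotypes.

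**Figure D4:**
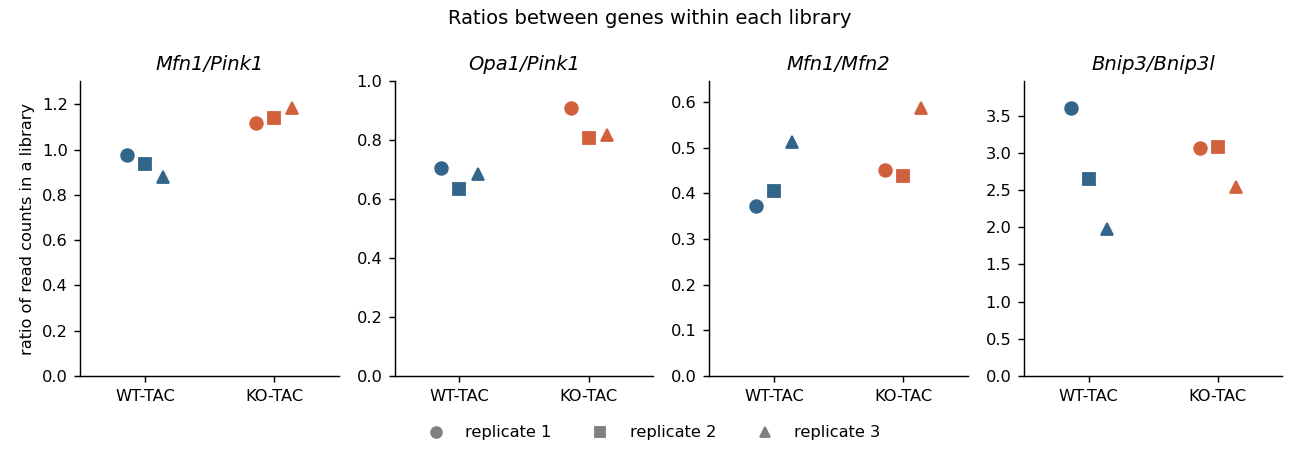
Ratios of read counts of 2 genes within each library (vertical axes, each from 0) in WT-TAC (blue) and KO-TAC (orange); marker shape is the replicate number. Mfn1/Pink1 and Opa1/Pink1 lie higher in all 3 KO-TAC libraries, whereas Mfn1/Mfn2 and Bnip3/Bnip3l overlap.

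The other genes of these pathways were read from the same fit, and 0 of them were called. Among regulators of fusion, 5 of 8 tested genes had a log2 fold change above 0 and 3 below (median 0.12). They included Oma1, the stress-activated protease that cuts OPA1, at 0.31 ± 0.26 (SE), Fam73b (Miga2) at 0.21 ± 0.18, Slc25a46 at −0.28 ± 0.27 and Yme1l1, the other OPA1 protease, at −0.085 ± 0.25. Without KO-TAC replicate 3 Oma1 was at 0.052, Slc25a46 at −0.71 and Yme1l1 at −0.39, and without KO-TAC replicate 2 Slc25a46 was at −0.050. Among regulators of fission, 4 of 10 were above 0 and 6 below (median −0.029). Mief1, which encodes the DRP1 receptor MiD51, had −0.32 ± 0.28, Inf2, a formin that drives actin-assisted constriction, −0.43 ± 0.45, the ubiquitin ligase gene Mul1 0.19 ± 0.20 and Mtfp1 0.018 ± 0.24. Without KO-TAC replicate 3 Mief1 was at −0.60 and Mtfp1 at −0.10. Without WT-TAC replicate 1 Inf2 was at 0.26; that library had 62.0 CPM against 13.8 to 29.3 in the other 5.

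Of the 15 genes of the PINK1 and parkin pathway, all tested, 10 were above 0 and 5 below (median 0.036). An unadjusted p under 0.05 was found for 2, Park2 and Optn, beside 2.93% of all tested genes. Parkin itself, listed as Park2, stood at 4.56, 7.23 and 10.4 CPM in WT-TAC and at 10.8, 15.4 and 16.1 CPM in KO-TAC. Every KO-TAC library was above every WT-TAC library, and the log2 fold change was 0.93 ± 0.36 (SE). Among all tested genes, 7.98% had groups that did not overlap in one direction or the other. In edgeR the adjusted p of Park2 was 0.999, and it ran from 0.811 to 1.00 over the alternatives. With 1 library left out its log2 fold change ran from 0.68 without WT-TAC replicate 1 to 1.25 without WT-TAC replicate 3, with 0.82 without KO-TAC replicate 3. The gene lies at chr17:10840384-12063361, on the same chromosome as Cacna1h and H2-Ea-ps. Optn, which encodes the autophagy receptor optineurin, stood at 148, 129 and 163 CPM in WT-TAC and at 168, 210 and 227 CPM in KO-TAC. These groups did not overlap either, and the log2 fold change of 0.46 ± 0.19 (SE) had an adjusted p of 0.999 in edgeR. It was 0.37 without KO-TAC replicate 3. In the other direction Rhot2, for a mitochondrial transport GTPase, had −0.19 ± 0.19 and the deubiquitinase gene Usp15 −0.18 ± 0.18 (−0.32 without KO-TAC replicate 3).

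Of 13 further mitophagy receptors, ULK1 complex and LC3-family genes, 8 were above 0 and 5 below (median 0.055), and 1 had an unadjusted p under 0.05, beside 2.93% of all tested genes. That gene was Gabarapl2, an LC3-family member, at 36.0, 36.6 and 31.4 CPM in WT-TAC and 57.6, 54.4 and 34.3 CPM in KO-TAC, where replicate 3 overlapped the wild type. Its log2 fold change was 0.49 ± 0.23 (SE), with 0.69 when KO-TAC replicate 3 was left out and 0.36 when KO-TAC replicate 1 was. Its unadjusted p was 0.0496 in edgeR, but 0.0607 in DESeq2 and 0.0682 in limma-voom. Gabarapl1 had 0.22 ± 0.19, Rb1cc1 −0.28 ± 0.31 and Ulk1, the kinase that starts autophagosomes, −0.069 ± 0.17. Rb1cc1, which encodes the ULK1 complex scaffold FIP200, was at −0.70 without KO-TAC replicate 3 and at −0.0033 without WT-TAC replicate 3, and Ulk1 at −0.0027 without KO-TAC replicate 3. Of 13 cristae and MICOS genes, 7 were above 0 and 6 below (median 0.0016). They included 2410015M20Rik (Micos13) at 0.41 ± 0.21, Minos1 (Micos10) at 0.22 ± 0.22, Opa3 at −0.23 ± 0.19 and Apool at −0.19 ± 0.30. Opa3 did not overlap between the genotypes, at 50.3, 46.0 and 49.7 CPM in WT-TAC and 45.7, 40.0 and 39.2 CPM in KO-TAC. The same held for 7.98% of all tested genes, and the unadjusted p of Opa3 was 0.249 in edgeR. Without KO-TAC replicate 3 Minos1 was at 0.35 and Apool at −0.29. The mitochondrial content list had 7 of 12 above 0 (median 0.060), with Vdac2 at 0.17 ± 0.19, Tomm20 at 0.23 ± 0.31, Vdac1 at −0.23 ± 0.22 and Tfam, the packaging factor of mitochondrial DNA, at −0.41 ± 0.26. Without KO-TAC replicate 3 Tfam was at −0.73, Vdac1 at −0.43 and Tomm20 at 0.45. Of all pathway genes given, Slc25a46 had the lowest adjusted p without that library, 0.584 in edgeR.

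Since BNIP3 is a target of the hypoxia factor HIF-1, 13 other HIF-1 targets were read beside it. Of these 9 were above 0 and 4 below (median 0.097). The 1 with an unadjusted p under 0.05, beside 2.93% of all tested genes, was Pfkfb3, an activator of glycolysis. Its log2 fold change was −0.87 ± 0.36 (SE), opposite in sign to Bnip3. Its groups overlapped, at 26.7, 21.6 and 15.8 CPM in WT-TAC and 18.7, 8.51 and 7.83 CPM in KO-TAC. Vegfa, the angiogenic growth factor, stood at 395, 321 and 266 CPM in WT-TAC and 441, 427 and 414 CPM in KO-TAC, and its order over libraries was that of Bnip3 within WT-TAC but not within KO-TAC. The log2 fold change of Vegfa was 0.39 ± 0.20 (SE) and that of Ldha, lactate dehydrogenase A, 0.30 ± 0.18, and in neither did the groups overlap, as in 7.98% of all tested genes. Egln1, an oxygen sensor that marks HIF for destruction, had −0.25 ± 0.20, and −0.40 without KO-TAC replicate 3. The adjusted p of these 4 genes was 0.999 in edgeR.

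Some of the 10 genes share sequence with others, which limits how exactly their reads can be assigned. Bnip3 has annotated copies such as the pseudogene Gm16439, which is 98.9% identical over 564 bases, and Bnip3l has Bnip3l-ps, 99.2% identical over 663 bases. Dnm1l has the processed pseudogene Gm13719 at 91.2% identity over 1347 bases. Antisense transcripts overlap 504 exonic bases of Bnip3 (Gm45507), 243 of Dnm1l (Gm49521) and 195 of Mff (C430014B12Rik). None of these copies and antisense genes has a row in the count table. The labels do not say whether counting used strand, so Bnip3, Bnip3l, Dnm1l and Mff levels are uncertain to that extent. Pink1 shares 69 exonic bases on its own strand with the microRNA gene Mir7019, which does have a row. The Pink1 level is uncertain to that extent. The table gives 1 count per gene, and splice forms, such as those of Opa1 and Dnm1l, were not analysed here.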

How the data were processed

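RNA of 3 WT-TAC and 3 KO-TAC mouse hearts was sequenced from Illumina TruSeq libraries. Per the labels' protocols the kit was either a plain or a stranded one, and they do not tell which was used where. The authors deposited raw counts per gene symbol. HISAT2 2.1.0, Subread, FastQC and edgeR are the tools, and GRCm38 (mm10) the build, that the submitters' processing notes list without roles.

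The test was edgeR 4.0.16's (R 4.3.3): filterByExpr with a minimum count of 10, TMM scaling, a robust quasi-likelihood fit with no covariate, and Benjamini-Hochberg adjustment over all tested genes (called at an adjusted p under 0.05). Standard errors were the size of the log2 fold change divided by √F, and 95% intervals use the t distribution with the test's degrees of freedom. Log2 CPM used a prior count of 2. Depth ran from 6411538 to 8571737 counts. Copies were searched with BLAST 2.17.0 (at least 90% identity over 100 bases), 3′ UTRs with GENCODE M21. The fit was tested on simulated data.

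Of the pathway and marker genes, Marchf5 had no match by symbol; older symbols matched 6. All 10 genes of interest are named, with the 2 smallest p values each way per pathway list. Genes and lists were chosen with earlier results of these data known. As alternatives, DESeq2 1.42.0, limma-voom (limma 3.58.1; also with quality weights), a replicate block, 3 other scalings (RLE, upper quartile, none), 2 other filters (none, or CPM above 1 in all 6 libraries) and leaving out each replicate were run.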

Additional observations from a re-analysis of the deposited data

How the results depend on the processing

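The count of called genes among the 10 was 0 under each of the 15 alternatives, the fit without KO-TAC replicate 3 included. The lowest unadjusted p of any of them was 0.0642, for Pink1 without KO-TAC replicate 3, and the lowest adjusted p 0.872. Over all genes 3 were called, against 21 with no filter on low counts (672 at an unadjusted p under 0.05), 17 in DESeq2 (513), 0 in limma-voom (376), 6 with the replicate block (574) and 0 to 7 with 1 replicate left out (0 without WT-TAC replicate 1, 7 without KO-TAC replicate 2, 6 without KO-TAC replicate 3). The median log2 fold change of the 10 genes ran from −0.15 (without KO-TAC replicate 3) to 0.072 (without WT-TAC replicate 3). Each alternative differed from the main value of 0.0061 by less than 0.19, the SD of the median among libraries of a genotype. That SD describes single libraries, and leaving 1 out moves a group mean by less than that library's own deviation. The fits with 1 replicate left out could therefore hardly have exceeded it, and the comparison does not show that they are stable.

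Of 150 estimates for the 10 genes, 129 kept their direction and 21 reversed it; Mfn2, Pink1 and Bnip3 had no reversal. With quality weights in limma-voom Mfn1 was at −0.086, Opa1 at −0.035, Dnm1l at −0.041, Bnip3l at −0.0077, Mtfp1 at −0.14 and Inf2 at 0.032. Without scaling Mtfp1 was at −0.015. With 1 replicate left out, values ran from −0.17 to 0.24 for Mfn1, −0.13 to 0.23 for Opa1, −0.067 to 0.13 for Dnm1l, −0.12 to 0.11 for Fis1, −0.26 to 0.047 for Mff, −0.054 to 0.17 for Bnip3l, −0.22 to 0.080 for Fundc1, −0.39 to 0.13 for Yme1l1, −0.19 to 0.24 for Mtfp1, −0.81 to 0.26 for Inf2, −0.48 to 0.068 for Apool and −0.064 to 0.47 for Tomm20. The cause was not tested.

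The replicate numbers share no stated source. Deviations of same-numbered libraries correlated across genes at 0.135, 0.011 and 0.257, and WT-TAC replicate 1 correlated best with KO-TAC replicate 2 (0.146). With the replicate block the median of the 10 genes was 0.0022.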

Other observations

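Summed over the 10 genes, reads equalled 27.7%, 26.2% and 26.6% of the reads of the 12 mitochondrial content genes in WT-TAC, and 23.9%, 23.5% and 24.7% in KO-TAC. The groups did not overlap, and they did not without Slc25a4, the adenine nucleotide carrier gene, among the content genes (42.6% to 46.0% and 39.6% to 40.7%). The ratio was not particular to mitochondrial content. Against the reads of the cardiomyocyte markers it was 3.27%, 3.19% and 3.42% in WT-TAC and 3.17%, 2.87% and 3.08% in KO-TAC, again without overlap. How often such ratios of other gene sums fail to overlap was not computed. Without Slc25a4 the content sum was led by Atp5a1 (mean 3164 CPM in WT-TAC). Mfn2 and Pink1 had the 2 lowest log2 fold changes of the 10 and the 2 highest mean CPM in WT-TAC (958 and 445). By gene, the median log2 fold change was 0.0061 for the 10 and 0.060 for the content genes. These ratios of sums were chosen after their values were seen and were not tested.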
